A study of Arabidopsis thaliana with 4 samples.

Results

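The stress and senescence NAC factors are 9 *Arabidopsis thaliana* genes that were chosen by locus. They are *NAC019* (AT1G52890), *NAC055* (AT3G15500), *RD26* (AT4G27410, also known as *NAC072*), *ATAF1* (AT1G01720), *ATAF2* (AT5G08790), *NAC102* (AT5G63790), *NAC032* (AT1G77450), *ORE1* (AT5G39610, also known as *NAC092*) and *NAP* (AT1G69490, also known as *NAC029*). A probe was taken as a member's when its transcript accession on the array matched the locus. This gave 14 of 43603 gene probes, and the 9 genes are 9 of the 25410 loci tested. Transcript levels in *bli-1* were compared with those in the Col-0 wild type on single color Agilent arrays, with 2 biological replicates per genotype. The *bli-1* line SAIL_107_D04 carries a T-DNA in *BLISTER* (*BLI*). All 4 samples were whole seedlings of 12 days, grown in continuous light on plates with sucrose. Each sample is thus a mixture of shoot and root tissue, in which fewer cells of a type and less RNA per cell cannot be told apart. The *bli-1* mutant is known to germinate late, and the labels count age from germination. The paper's general methods state that *bli-1* was sown earlier in direct comparisons, but its array methods do not say whether this was done.

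NAC proteins are plant transcription factors that bind DNA through a conserved N-terminal domain and act on transcription through a variable C-terminal region. *NAC019*, *NAC055* and *RD26* are induced by drought, salt and abscisic acid (ABA) and also act downstream of jasmonate. *ATAF1*, *ATAF2*, *NAC102* and *NAC032* form a group of close relatives that respond to wounding, pathogens and abiotic stress. *ORE1* and *NAP* promote leaf senescence, in which chlorophyll and protein of old leaves are broken down.

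None of the 9 genes passed the limits of the test, an adjusted p below 0.05 in limma and a change of at least 1.5-fold. Over all loci 28 passed with higher levels in *bli-1* (0.11%) and 6 with lower levels (0.0236%). The paper reports many more changed genes and names *NAC019* among those up-regulated in *bli-1*. The largest differences among the 9 were those of *NAC019*, 2.89-fold higher in *bli-1*, and *ORE1*, 2.37-fold higher. At an unadjusted p of 0.05 and the same fold change, 3 of the 9 genes were higher in *bli-1* (*NAC019*, *ORE1* and *RD26*), against 3.01% of all loci, and 0 were lower, against 2.98% (5.99% of loci in either direction). The median log2 fold change of the 9 genes was 0.40, whereas it was -0.00 over all loci. Fitted values were above 0 for 8 of the 9 genes and for 49.3% of all loci. The 4 genes of the *ATAF1* group lay closer to 0 than the rest, with a median of 0.13. An exact permutation test of 2 against 2 arrays cannot give a two-sided p below 0.333, so the limma fit over all genes is the only test given.

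One slide held *bli-1* replicate 2 together with both samples of Col-0, while *bli-1* replicate 1 lay on another. Between 74.7% and 77.4% of gene spots were well above background on 3 arrays, and 91.7% on that of *bli-1* replicate 2. The 14 probes of the 9 genes passed the mark for spots well above background on every array, and 0 of them were saturated or marked as outliers. On the array of *bli-1* replicate 2 the 25th percentile of raw intensity was 129.5, against 27 to 29 on the others. Passing the mark thus says less there. *BLI* itself had a log2 fold change of -1.55 (SE 0.16, limma adjusted p = 0.0823). Its 2 probes differed, with -2.67 for one that was well above background on 3 of 4 arrays and -0.42 for the other. Values are given as normalized log2 intensities, which can be compared between arrays for one gene but not between genes.

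**Figure D1:**
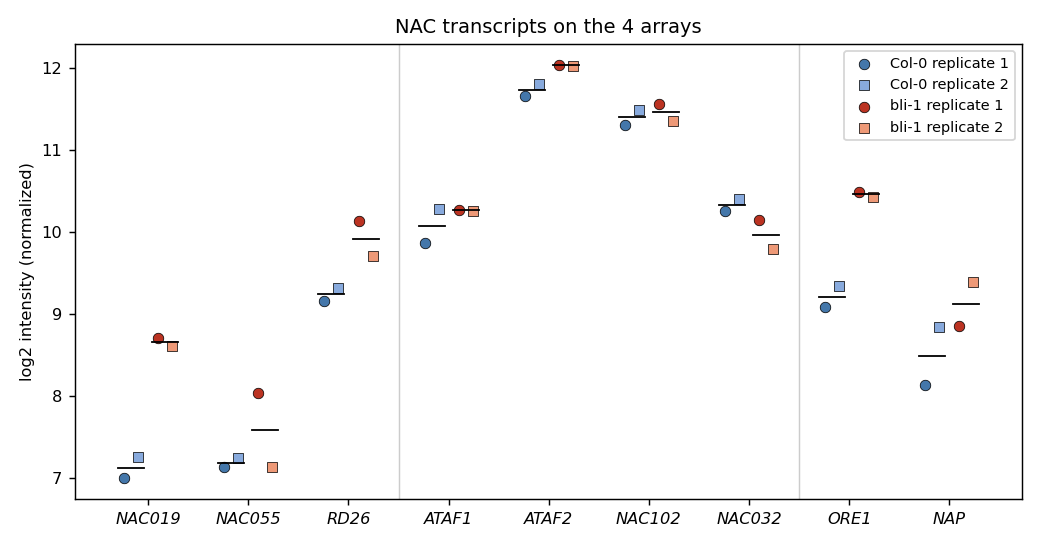
Normalized log2 intensity (vertical axis) of the 9 NAC genes on the 4 arrays. Circles and squares stand for replicates 1 and 2, blue for Col-0, red and orange for *bli-1*, and horizontal lines for the mean of 2 arrays. Both *bli-1* arrays lay above both Col-0 arrays for 5 genes and below them for *NAC032*.

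Among the drought and ABA induced genes, *NAC019* differed most between the genotypes. Its level was 6.996 and 7.25 in Col-0 replicates 1 and 2 against 8.71 and 8.60 in *bli-1* replicates 1 and 2. Both *bli-1* arrays were thus far above both Col-0 arrays. The Col-0 replicates differed by 0.26, more than for 84.6% of loci, and those of *bli-1* by 0.10. The log2 fold change was 1.53 (SE 0.15, 95% confidence interval 1.14 to 1.92), which is larger than that of 99.6% of loci, and the limma adjusted p was 0.0756. The probe was dim in Col-0, with raw intensities of 51 and 88 against 404 and 474 in *bli-1*. An offset of 50, which pulls dim values together, was added in the background correction. Without it the log2 fold change was 2.03, but the limma adjusted p was 0.402.

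*RD26* codes for a transcriptional activator of dehydration responses. Its level was 9.16 and 9.31 in Col-0 against 10.13 and 9.71 in *bli-1*. The genotypes did not overlap, but *bli-1* replicate 1 stood above *bli-1* replicate 2 by 0.43. The log2 fold change of 0.68 (SE 0.19, 95% confidence interval 0.19 to 1.17) corresponds to 1.61-fold and had a limma adjusted p of 0.340. It lay just above the limit of 1.5-fold.

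*NAC055*, the closest relative of *NAC019*, had levels of 7.13 and 7.24 in Col-0 and of 8.04 and 7.14 in *bli-1*. After normalization only *bli-1* replicate 1 was higher, and *bli-1* replicate 2 lay between the Col-0 arrays. The raw intensities, which are not comparable between arrays, were 61.5 and 84.5 in Col-0 against 227.5 and 201 in *bli-1*. The 2 *bli-1* arrays differed by 0.90, more than they did for 93.9% of loci. The fitted log2 fold change of 0.40 (SE 0.32, 95% confidence interval -0.42 to 1.23, limma adjusted p = 0.661) thus stands for 1 array of 2, and its sign changed when *bli-1* replicate 1 was left out (-0.042). Over the 20 alternative ways of processing it ranged from -0.047 to 1.44, the latter with the processed signal of the scanner software scaled to the 75th percentile. With that signal and quantile normalization it was 0.79.

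In the *ATAF1* group no gene reached 1.5-fold in either direction. *ATAF2*, a repressor of pathogenesis-related genes that responds to wounding, had levels of 11.66 and 11.81 in Col-0 and of 12.04 and 12.02 in *bli-1*. Both *bli-1* arrays were above both Col-0 arrays, and the nearest arrays of the genotypes were 0.22 apart. This gave a log2 fold change of 0.30 (SE 0.13, 95% confidence interval -0.03 to 0.63, limma adjusted p = 0.548). Its 2 probes gave 0.24 and 0.35.

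*ATAF1* activates genes of ABA synthesis and transport. Its level was 9.86 and 10.28 in Col-0 against 10.27 and 10.26 in *bli-1*. The *bli-1* arrays hardly differed and overlapped with Col-0, and only Col-0 replicate 1 was low. The difference of 0.42 between the Col-0 arrays was larger than that of 95.9% of loci. The log2 fold change was 0.19 (SE 0.18, 95% confidence interval -0.28 to 0.67, limma adjusted p = 0.700), with 0.17 to 0.21 for its 3 probes. It was -0.017 when Col-0 replicate 1 was left out.

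*NAC102*, which is linked to the response to low oxygen, had levels of 11.30 and 11.49 in Col-0 and of 11.56 and 11.35 in *bli-1*. The genotypes overlapped. In the fit the log2 fold change was 0.06 (SE 0.15, 95% confidence interval -0.33 to 0.45, limma adjusted p = 0.881).

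*NAC032*, a gene induced by ABA and other stresses, was the only one of the 9 with a negative value. Its level was 10.25 and 10.40 in Col-0 against 10.14 and 9.79 in *bli-1*. Both *bli-1* arrays lay below both Col-0 arrays, as was the case for 24.1% of all loci. Its log2 fold change was -0.36 (SE 0.17, 95% confidence interval -0.80 to 0.09, limma adjusted p = 0.583). No alternative turned its sign, and its values ranged from -0.53 to -0.18.

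Of the leaf senescence genes, *ORE1*, which acts downstream of ethylene signalling and is restrained by the microRNA miR164, was clearly apart between the genotypes. Its level was 9.08 and 9.34 in Col-0 against 10.49 and 10.43 in *bli-1*. Both *bli-1* arrays were above both Col-0 arrays by more than 1 on the log2 scale. The log2 fold change was 1.25 (SE 0.15, 95% confidence interval 0.87 to 1.63), larger than that of 99.3% of loci, with a limma adjusted p of 0.101. Raw intensities of 347 and 602 in Col-0 and of 1599.5 and 1652 in *bli-1* were far above the local background.

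*NAP*, which promotes leaf senescence in part through ABA, had levels of 8.13 and 8.84 in Col-0 and of 8.85 and 9.39 in *bli-1*. The genotypes were apart by only 0.01, and replicate 2 was higher than replicate 1 in both. The Col-0 arrays differed by 0.71, more than for 99.1% of loci, and the *bli-1* arrays by 0.54. The log2 fold change was 0.63 (SE 0.31, 95% confidence interval -0.18 to 1.44, limma adjusted p = 0.593). Its 2 probes gave similar values of 0.67 and 0.60.

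**Figure D2:**
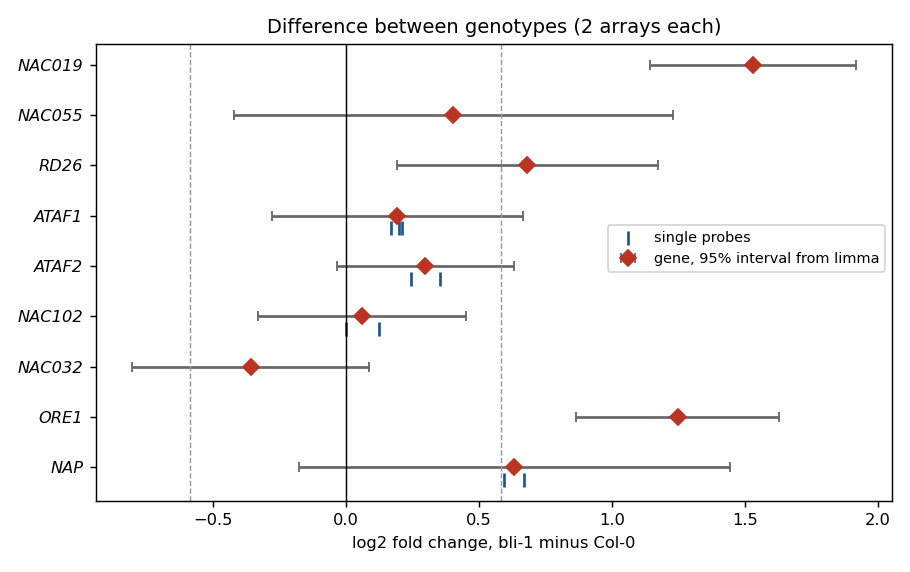
Log2 fold change of *bli-1* against Col-0 (horizontal axis) for the 9 NAC genes. Diamonds show the fitted value and bars its 95% confidence interval from limma with 2 arrays per genotype, blue ticks show single probes of genes with more than 1, and dashed lines mark 1.5-fold. The intervals of *NAC019*, *RD26* and *ORE1* do not reach 0.

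Counted over the 9 genes, both *bli-1* arrays were above both Col-0 arrays for 5 genes, against 22.7% of all loci, and below them for 1. At least 1.5-fold higher fitted values were found for 4 genes, against 4.93% of all loci, and at least 1.5-fold lower values for 0, against 3.83%. *RD26* and *NAP* were the members just inside this limit and *NAC055* the one just outside.

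The replicates of a genotype differed in a common direction. In Col-0, replicate 2 was higher than replicate 1 for 9 of the 9 genes, whereas this was so for 52.8% of all loci. The median difference was 0.19 for the 9 genes, and the median absolute difference over all loci was 0.11. In *bli-1*, replicate 2 was higher for *NAP* alone, against 48.5% of all loci. Lists of other NAC genes, described below, leaned the same way in *bli-1*. There replicate 2 was higher for 2 of 21 developmental, 3 of 13 membrane-held and 4 of 13 other senescence factors. Tissue markers differed between the replicates too. All 6 root markers were lower in replicate 2 than in replicate 1, with a median of -0.23 in Col-0 and of -0.94 in *bli-1*. Photosynthetic tissue markers were higher in replicate 2 for 6 of 6 genes in Col-0 (median 0.31) and for 5 of 6 in *bli-1* (median 0.37). The *bli-1* replicates also lay on different slides, and the array of replicate 2 had the high 25th percentile of raw intensity. In *bli-1*, differences between samples, slides and arrays thus cannot be told apart. The part of tissue proportions in the NAC values was not tested.

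**Figure D3:**
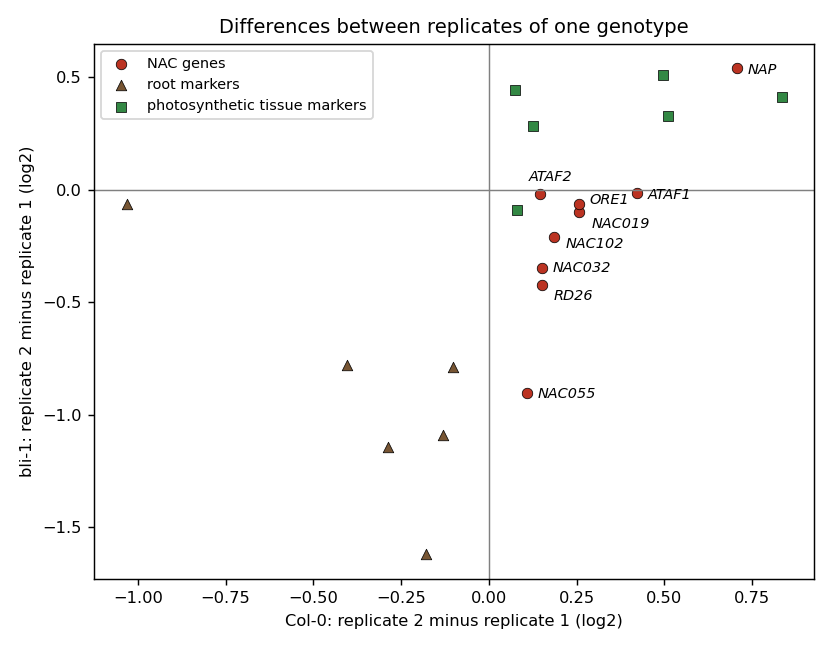
Replicate 2 minus replicate 1 on the log2 scale in Col-0 (horizontal axis) and in *bli-1* (vertical axis), for the 9 NAC genes (red circles), 6 root markers (brown triangles) and 6 photosynthetic tissue markers (green squares). The NAC genes lie to the right of 0 in Col-0, and only *NAP* lies above 0 in *bli-1*.

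Between the genotypes, the median log2 fold change of root markers was -0.57. Of these, 2 of 6 were lower at an unadjusted p of 0.05 and 1.5-fold, namely the root hair expansin *EXPA7* (-1.18) and the nitrate transporter *NRT2.1* (-0.996). The count of lower root markers was 0 without Col-0 replicate 1, 1 when replicate 2 of either genotype was left out, and 5 without *bli-1* replicate 1. The summed level of the 6 root markers was 15570 to 17410 in Col-0 and 11340 to 23560 in *bli-1*, so that the sums overlapped. Bright genes weigh most in such a sum. Gene by gene, both *bli-1* arrays were below both Col-0 arrays for 3 of the 6, against 24.1% of all loci. They were above them for 0, against 22.7%. Photosynthetic markers summed to between 267000 and 301700 in Col-0 and between 273200 and 298400 in *bli-1*, with 0 of 6 genes past these limits. Of 5 flower markers, *SEP3* (1.66) and *PI* (1.22), which specify floral organs, were higher in *bli-1* at the same limits, and the summed level of the list was 554.6 to 574.3 in Col-0 and 1052 to 1281 in *bli-1*. *NAP* was first described as a target of the floral regulators *AP3* and *PI*. *AP3* had a log2 fold change of 0.20. Of 6 seed and embryo markers, *FUS3* alone was well above background on all 4 arrays, by at least 1 of its 2 probes, and its log2 fold change was -0.20. *LEC1* was not well above background on any array. Whether flower or root transcripts have a part in the values of the NAC genes was not tested.

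With the slide as a block, the comparison rests on *bli-1* replicate 2 and both Col-0 replicates. The spread rests on the Col-0 arrays alone, and the *bli-1* array used is that with the high 25th percentile of raw intensity. *NAC019* (1.48, limma adjusted p = 0.00115), *ORE1* (1.22, limma adjusted p = 0.00224) and *NAP* (0.90, limma adjusted p = 0.0490) were then past both limits. This must be read against the 8.12% of all loci that were past them with higher levels in *bli-1*, and 7.57% with lower levels. *RD26* (0.47) and *NAC032* (-0.53) stayed under 1.5-fold, and *NAC055* was at -0.047. The differences of *NAC019* and *ORE1* were thus similar within the slide, whereas those of *NAC055* and *RD26* were smaller and that of *NAP* was larger.

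For *NAC019* the 20 alternative ways of processing gave log2 fold changes of 1.38 to 2.67, and for *ORE1* of 1.12 to 1.46. The slide block and the fit that leaves out *bli-1* replicate 1 after joint normalization compare the same arrays, so 19 of the 20 are distinct. Both genes were past the unadjusted limits in every alternative that compared both arrays of each genotype. Among these alternatives *NAC019* was past the adjusted limits only with the filter on dim probes (limma adjusted p = 0.0413). *ORE1* was past them only with the trend and robust options of eBayes (limma adjusted p = 0.0449). Their other adjusted calls came from fits that compare 1 *bli-1* array and take the spread from the Col-0 arrays alone. *RD26* ranged from 0.46 to 0.90 and was past the unadjusted limits in 9 of the 19. *NAP* ranged from 0.28 to 0.99 and was past them in 5.

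**Figure D4:**
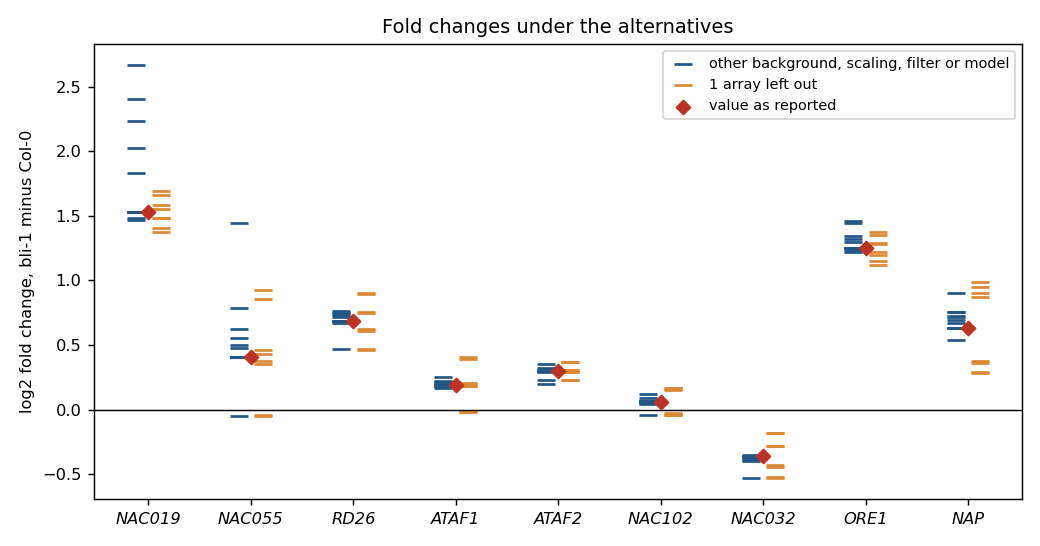
Log2 fold change of *bli-1* against Col-0 (vertical axis) for the 9 NAC genes. Diamonds show the value as reported, blue dashes the alternatives of background correction, scaling, filter or model, and orange dashes those that leave out 1 array. *NAC019*, *RD26*, *ATAF2*, *ORE1* and *NAP* stay above 0 and *NAC032* below 0 under all 20 alternatives.

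The other NAC genes were then examined. By their RefSeq names, 88 NAC genes beside the 9 had a value, a set that was chosen after the data were seen. Their median log2 fold change was 0.01, and 10 of them (11.4%) were higher at an unadjusted p of 0.05 and 1.5-fold. *LOV1*, which delays flowering, was the 1 gene lower at these limits (-0.73). *NAC103*, a factor of the unfolded protein response, was the only NAC gene past the adjusted limits (4.09, SE 0.13, limma adjusted p = 0.00711). When the 97 NAC genes were ranked by their fold change, *NAC019* was at rank 2, *ORE1* at rank 5, *RD26* at rank 11 and *NAP* at rank 13. The other 5 genes followed at ranks 23 (*NAC055*), 27 (*ATAF2*), 32 (*ATAF1*), 46 (*NAC102*) and 94 (*NAC032*).

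Of 13 other NAC genes with a role in senescence or expressed during it, 5 were higher at the unadjusted limits and 0 lower, with a median of 0.42. They were *NAC036* (0.93), *NAC087* (0.82), *JUB1* (0.72), which delays senescence, *NAC047* (0.65) and *ORS1* (0.62), a close relative of *ORE1* that promotes senescence. This count was 0 without Col-0 replicate 1 and 0 when arrays were scaled to the 75th percentile after normexp. Of 13 NAC factors that are held at membranes by a transmembrane domain, 3 were higher and 0 lower, with a median of 0.10. The count was 6 without *bli-1* replicate 2 and 5 with the processed signal scaled to the 75th percentile. As reported they were *NAC062* (1.42, SE 0.13) and *NAC089* (1.14, SE 0.15), which both act in the response to stress of the endoplasmic reticulum, and *TIP* (0.62). Of 21 developmental NAC genes only *NAC1* (1.25, SE 0.13), a factor of lateral root development, was higher and 0 were lower. Without *bli-1* replicate 2 this count was 2 higher, and without *bli-1* replicate 1 it was 2 lower. The 13 vascular and fibre factors ranged from -0.50 to 0.13 and the 4 root cap factors from -0.31 to -0.04.

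*ORE1* and *NAC1* belong to the 6 NAC transcripts that are known to be cut under the guidance of miR164. This group was put together after the values were seen. *ORE1* had a log2 fold change of 1.25 and *NAC1* likewise of 1.25. The 4 transcripts beside these were *NAC100* (0.42), *CUC1* (0.30), *CUC2* (0.11) and *NAC080* (0.10), and none of them was past the unadjusted limits. Both *bli-1* arrays were above both Col-0 arrays for 4 of the 6, against 22.7% of all loci. These were *ORE1*, *NAC1*, *NAC100* and *CUC2*. *CUC1* was well above background on only 1 Col-0 array. No probe of a *MIR164* gene was matched, so the microRNA was not analysed here.

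**Figure D5:**
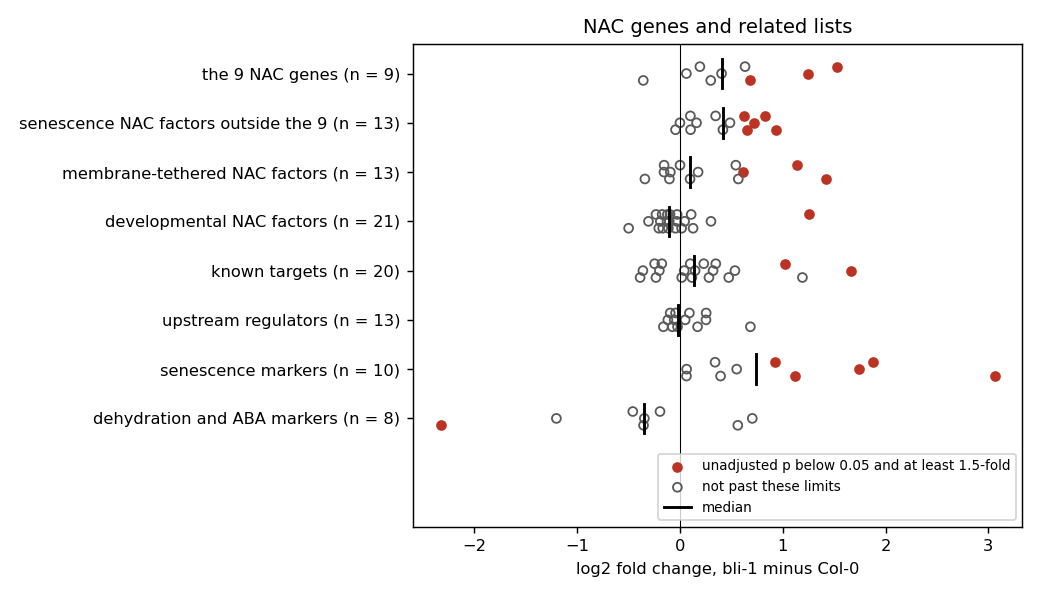
Log2 fold change of *bli-1* against Col-0 (horizontal axis) for the 9 NAC genes and for lists of related genes, with 1 point per gene. Filled points are past an unadjusted p of 0.05 and 1.5-fold, and black bars show medians. The medians of the 9 genes (0.40), of the other senescence NAC factors (0.42) and of the senescence markers (0.74) lie to the right of 0. Those of the known targets (0.13) and of the membrane-held NAC factors (0.10) do so by less.

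Known targets of the 9 factors were compared next. The list does not separate targets that a factor activates from those that it represses. Counts and a median over it therefore do not show whether targets follow their factor. Of 21 listed targets 20 had a value, 2 of which were higher at the unadjusted limits and 0 lower, and the median was 0.13. Without Col-0 replicate 2 it was 1 higher and 1 lower, without *bli-1* replicate 1 it was 4 higher, and without *bli-1* replicate 2 it was 2 higher and 1 lower. *SAG113*, a phosphatase gene of ABA signalling that *NAP* activates in senescing leaves, was at 7.59 and 7.47 in Col-0 and at 8.32 and 8.78 in *bli-1*. Its *bli-1* arrays were both higher, with a log2 fold change of 1.02 (SE 0.20, limma adjusted p = 0.208). *AAO3*, an ABA synthesis gene that *NAP* also activates, had a value of 0.32. *NIT2*, a nitrilase gene of auxin synthesis bound by *ATAF2*, was at 10.57 and 9.90 in Col-0 and at 12.38 and 11.41 in *bli-1*. It was higher in both *bli-1* arrays with a wide spread in each genotype (1.66, SE 0.40, limma adjusted p = 0.286). *ATAF2* itself had a fold change of only 1.23.

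Of 7 targets of *ORE1*, 0 were past the limits, and their values ranged from -0.23 to 0.47. The lowest was that of the nuclease gene *BFN1* and the highest that of *PAO*, which codes for an enzyme of chlorophyll breakdown. Of 5 targets of *NAC019*, *NAC055* or *RD26*, 0 were past the limits either. Their values ranged from -0.39 (*LOX2*) to 0.53 (*VSP1*). The others were *ERD1* (0.28), a dehydration-induced gene, and *ICS1* (0.23) and *BSMT1* (0.04), for the synthesis and methylation of salicylic acid. *BSMT1* was not well above background on either Col-0 array. Of 4 targets of *ATAF1*, 0 passed. The ABA synthesis gene *NCED3* was at -0.20, and the ABA transporter gene *ABCG40* at 1.19 with an SE of 0.51, and only *bli-1* replicate 2 was far above Col-0.

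Of 13 regulators known to act upstream of these factors, 0 were past the limits in either direction, with a median of -0.02 and a range from -0.16 to 0.68. The ethylene regulators *EIN2* (-0.10) and *EIN3* (0.25) and the jasmonate regulator *MYC2* (0.09) were among them. The highest value was that of *PIF4*, a light signalling factor that promotes *ORE1* expression in the dark and in ageing leaves. These values are transcript levels and do not measure the activity of the proteins.

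Senescence markers were higher in *bli-1* for 5 of 10 genes at the unadjusted limits and lower for 0, with a median of 0.74. *SAG13* (3.06, limma adjusted p = 0.0230) and *SEN4* (1.74, limma adjusted p = 0.0485) were past the adjusted limits. *SAG14* (1.88), *SEN1* (1.12) and *SAG21* (0.92) were past the unadjusted ones only. *SAG12*, the marker that is most specific to senescing leaves, was not well above background in Col-0, and levels of 6.36 and 6.23 in Col-0 and of 6.28 and 6.44 in *bli-1* overlapped. For the 8 dehydration and ABA markers, both *bli-1* arrays were below both Col-0 arrays for 5 genes, against 24.1% of all loci. They were above them for 1 gene, *RD29B* (0.70), against 22.7% of all loci. Fitted values were above 0 for 2 of the 8, *RD29B* and *RAB18* (0.56), and below 0 for 6. The lowest was that of *ADH1*, whose Col-0 replicates differed by 1.37. At the unadjusted limits 0 of the 8 were higher and 1 was lower, the alcohol dehydrogenase gene *ADH1* (-2.33, SE 0.46, limma adjusted p = 0.221), with a median of -0.35. Without *bli-1* replicate 1 it was 1 higher and 2 lower, without *bli-1* replicate 2 it was 1 higher, and without Col-0 replicate 2 it was 2 lower.

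By position, the nearest tested genes on both sides of each of the 9 loci were looked up in the RefSeq annotation of TAIR10.1. None of these 18 neighbours was past the unadjusted limits, and their log2 fold changes ranged from -0.49 to 0.47. Both NAC genes among them were next to a drought and ABA induced member. *NAM* (AT1G52880), beside *NAC019*, had a log2 fold change of 0.29, and *NAC056* (AT3G15510), beside *NAC055*, one of 0.47, which is higher than that of *NAC055* itself but under 1.5-fold.

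The genes whose pattern over the 4 arrays was most like that of *NAC019* were found by the root mean square difference of their deviations from their own mean, over 19273 loci well above background on all arrays. They were *BCAT-2* (AT1G10070, difference of 0.046), for an enzyme of branched-chain amino acid metabolism, the glutathione transferase gene *GSTF2* (AT4G02520, 0.062) and *PGL1* (AT1G13700, 0.082), a 6-phosphogluconolactonase gene. Among the 9 genes *ORE1* was the most like *NAC019*, with a difference of 0.14, followed by *RD26* (0.44) and *NAP* (0.53). The size of their difference between the genotypes follows from this choice.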

How the data were processed

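Cy3-labelled RNA of 4 samples was read on 4 single color arrays. The authors deposited spot and local background intensities, as measured by Agilent Feature Extraction 11.0.1.1, without normalization between arrays. The median intensity and median background were corrected with normexp (offset 50, a choice made here) in R 4.3.3 with limma 3.58.1, control spots were left out and outlier spots set to missing. The log2 values were quantile normalized, and repeat spots, then the probes of each gene, were averaged. Of 35703 gene spots with a RefSeq transcript accession, 34432 were matched to a locus. Genotypes were compared with lmFit and eBayes, with Benjamini-Hochberg adjustment of p-values over 34290 genes and transcripts, of which 25410 are loci. Limits were 0.05 and 1.5-fold, as in the paper's methods. Those methods adjust p-values but do not state that the 0.05 limit was set on the adjusted p. An unadjusted p comes from the same fit. SE and intervals come from the moderated variance with 4.79 degrees of freedom. The number of arrays limits the precision. Code was tested on simulated data.

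The members and gene lists were chosen with earlier results of these data known. Named were the 9 genes, *BLI*, from each list up to 4 genes with the largest change past the unadjusted limits, and the 3 genes nearest to *NAC019*. Other genes were named after their values were seen. The alternatives were other offsets or plain background subtraction, the scanner software's processed signal, scaling to the 75th percentile, a filter on dim probes, outlier spots kept, the brightest probe of a gene, eBayes with trend and robust options, a block for the slide or for the replicate number, and each array left out. Replicate numbers are shared by the genotypes, but no label says that they pair the samples.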

Additional observations from a re-analysis of the deposited data

How the results depend on the processing

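The number of the 9 genes past the adjusted limits was 0 as reported, 1 with a filter on dim probes, 1 with the trend and robust options of eBayes and 3 with the slide as a block. It was 0 to 2 when each array was left out and the rest normalized again, and 0 to 4 when the arrays were left out after joint normalization, an alternative chosen after seeing the data. The calls came with very different numbers over all loci, for example 75 higher and 24 lower with the filter on dim probes, 73 and 31 with the trend and robust options, and 1908 and 1643 without *bli-1* replicate 1. With the replicate block, 0 of the 9 genes and 0 loci were past the adjusted limits and 4 of the 9 past the unadjusted ones. Deviations of samples with the same number correlated at 0.11 across loci, and with 2 pairs this is no evidence of pairing.

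The median log2 fold change of the 9 genes was 0.62 with plain background subtraction, 0.71 with the processed signal and quantile normalization and 0.75 with the processed signal scaled to the 75th percentile, where the median of all loci was 0.18. It was 0.28 to 0.46 with 1 array left out. *NAC055* changed sign in the fit with a slide block (-0.047) and without *bli-1* replicate 1 (-0.042, or -0.047 after joint normalization), and ranged from -0.047 to 0.93 with 1 array left out and up to 1.44 with the processed signal scaled to the 75th percentile. *ATAF1* changed sign without Col-0 replicate 1 (-0.017 both ways), with a range from -0.017 to 0.40. *NAC102* changed sign with that block (-0.043), without Col-0 replicate 1 (-0.029 and -0.031) and without *bli-1* replicate 1 (-0.043 both ways), with a range from -0.043 to 0.17. Of 98 genes of 7 related lists, 17 were past the unadjusted limits as reported, 8 after normexp with scaling to the 75th percentile and 11 to 25 with 1 array left out. The cause of these differences was not tested. Where 1 array is left out, the fit takes the spread of the remaining pair for both genotypes. With 2 arrays per genotype small changes were not detectable, as the interval of *NAC102* (-0.33 to 0.45) shows.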
